A study of Carica papaya with 12 samples.

Results

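The 200 genes described here were lower in ripe than in unripe flesh of the papaya variety ‘RB1’ and higher in ripe than in unripe flesh of the variety ‘1B’. They were found by adding up the TMM-scaled TPM (an abundance corrected for transcript length, scaled between libraries by the trimmed mean of M values) over the isoforms of each Trinity gene. A Trinity gene is the set of isoforms that the assembler placed under 1 identifier. The ripening change is the difference, ripe minus unripe, of log2(group mean + 1). Of 75259 Trinity genes, 265 (0.352%) had a change below -1 in ‘RB1’ and above 1 in ‘1B’. The 200 with the largest smaller absolute change of the 2 are the members, and 198 of them were among the 13203 genes with a mean of at least 1 over the 4 groups. The members were thus chosen by their ripening changes in these libraries, which are given as a description.

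Total RNA of fruit flesh was sequenced from the red-fleshed ‘RB1’, labelled with a sweet flavour and floral aroma, and from the yellow-fleshed ‘1B’, labelled with a bitter flavour and musty aroma. Each variety was sampled unripe and ripe, with 3 biological replicates for each of the 4 groups. By the paper's ripening index, unripe fruit was harvested mature green and ripe fruit partly coloured, at a stage short of fully ripe. All fruits, the unripe ones included, had been treated after harvest with Sportak (prochloraz), a fungicide against postharvest disease, and had been kept warm and then cooled during transport, so no group is untreated. Total counts per library ran from 10949263 to 60100478, and the lowest depth was that of ‘RB1’ ripe replicate 2. In the paper's RNA quality report, every unripe ‘1B’ sample scored higher than every sample of the other groups. RNA quality thus differed between the stages of ‘1B’, and its effect on the ‘1B’ changes was not tested. ‘RB1’ ripe replicate 3 stood apart from the other ripe ‘RB1’ libraries and was left out of the group values, so that ripe ‘RB1’ has n = 2 and every other group n = 3. Its levels are given separately beside those of the genes. Flesh holds several cell types, and a lower level from fewer cells of a type and from less RNA per cell cannot be told apart. The tables pair no identifier with a cell type marker, so the tissue label was not tested.

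Ripening fruit converts stored and imported carbohydrate into soluble sugars, organic acids, lipids and volatiles. Sucrose synthase cleaves sucrose into fructose and UDP-glucose, glycolysis carries hexose phosphates to pyruvate in the cytosol and in plastids, and plastids turn pyruvate into acetyl-CoA for fatty acids. Beta-glucosidases release glucose from glucosides and cell wall fragments. Names were taken only from the study's own list of genes of sugar, fatty acid and terpenoid pathways, which covers 77 Trinity genes. All other members are given by identifier, with no role, and no member has a genome position in these tables.

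Between unripe and ripe fruit the members changed by -7.26 to -1.12 in ‘RB1’ (median -1.58) and by 1.11 to 7.33 in ‘1B’ (median 1.66). Over the 13203 genes with a mean of at least 1 the median change was 0.01 in ‘RB1’ and 0.32 in ‘1B’. The change was larger in ‘1B’ for 117 members and larger in ‘RB1’ for 83. Both changes exceeded 2 in size for 37 members and 3 for 9 members, and both were under 2 for 103. By the same limits 137 genes went the other way, higher in ripe ‘RB1’ and lower in ripe ‘1B’, 236 were lower in both and 367 were higher in both.

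**Figure D1:**
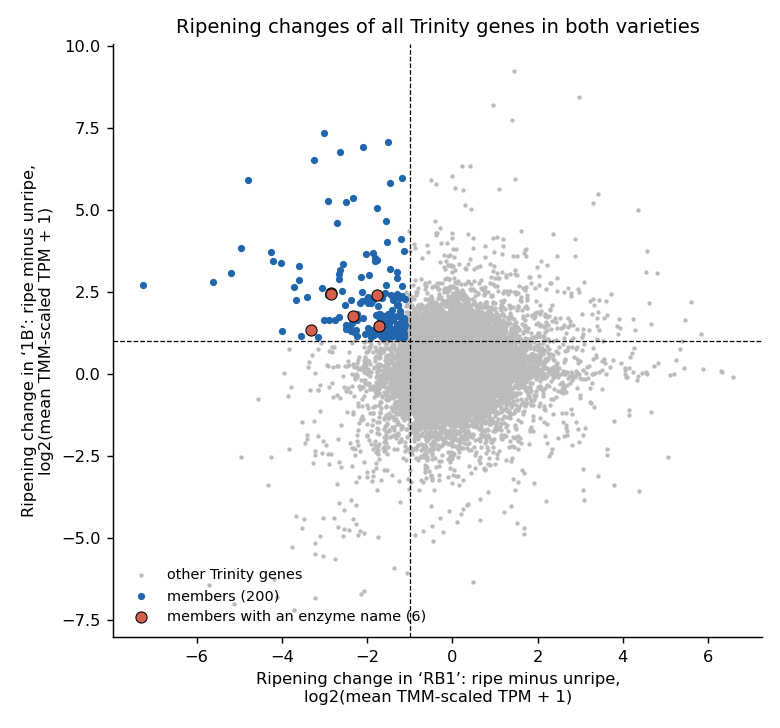
Ripening change of each Trinity gene in ‘RB1’ (x axis) and ‘1B’ (y axis), both as ripe minus unripe of log2(mean TMM-scaled TPM + 1), with dashed lines at -1 and 1. The 200 members (blue) fill the upper left corner, from -7.26 to -1.12 in ‘RB1’ and from 1.11 to 7.33 in ‘1B’, and the 6 members with an enzyme name (red) lie among them.

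Levels are TMM-scaled TPM throughout, and folds are ratios of group means on this deposited scale. In ‘1B’ this scale gave larger ripening rises for most members than the fit on the counts described below. The median level of the members was 15.3 in unripe ‘RB1’, 3.64 in ripe ‘RB1’, 2.83 in unripe ‘1B’ and 17.3 in ripe ‘1B’. The highest group was unripe ‘RB1’ for 96 members and ripe ‘1B’ for 104. The lowest was ripe ‘RB1’ for 95 and unripe ‘1B’ for 105. ‘RB1’ was above ‘1B’ in unripe fruit and below it in ripe fruit for 186 members, above it at both stages for 7 and below it at both for 7. On the log2 scale the high groups of the 2 varieties, unripe ‘RB1’ and ripe ‘1B’, lay within 1 of each other for 142 members, and the low groups for 131. Both held for 114 members, for which the varieties had about the same pair of levels at opposite stages. For all 200 members, ripe ‘RB1’ replicates 1 and 2 lay below every unripe ‘RB1’ library and ripe ‘1B’ above every unripe ‘1B’ library. The same directions without overlap were found in 12.7% of genes with a level above 0 and in 19.8% of those with a mean of at least 1, and the rule itself leads to the members' count.

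Together the members held 4.55 ± 0.552% of the summed level in unripe ‘RB1’ (SD, n = 3) and 0.879 ± 0.0294% in ripe ‘RB1’ (SD, n = 2). In unripe ‘1B’ they held 0.206 ± 0.00998% and in ripe ‘1B’ 3.85 ± 0.631% (SD, n = 3 each). One gene, TRINITY_DN176_c5_g1, accounted for much of this. Without it the shares were 1.62 ± 0.119%, 0.398 ± 0.0157%, 0.201 ± 0.0101% and 2.55 ± 0.356% in the same order. A level of at least 100 in some group was reached by 50 members, and 65 stayed under 10 in all 4 groups. One member had 0 counts in both ripe ‘RB1’ libraries and 2 had 0 counts in every unripe ‘1B’ library, and no fold is given for these.

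**Figure D2:**
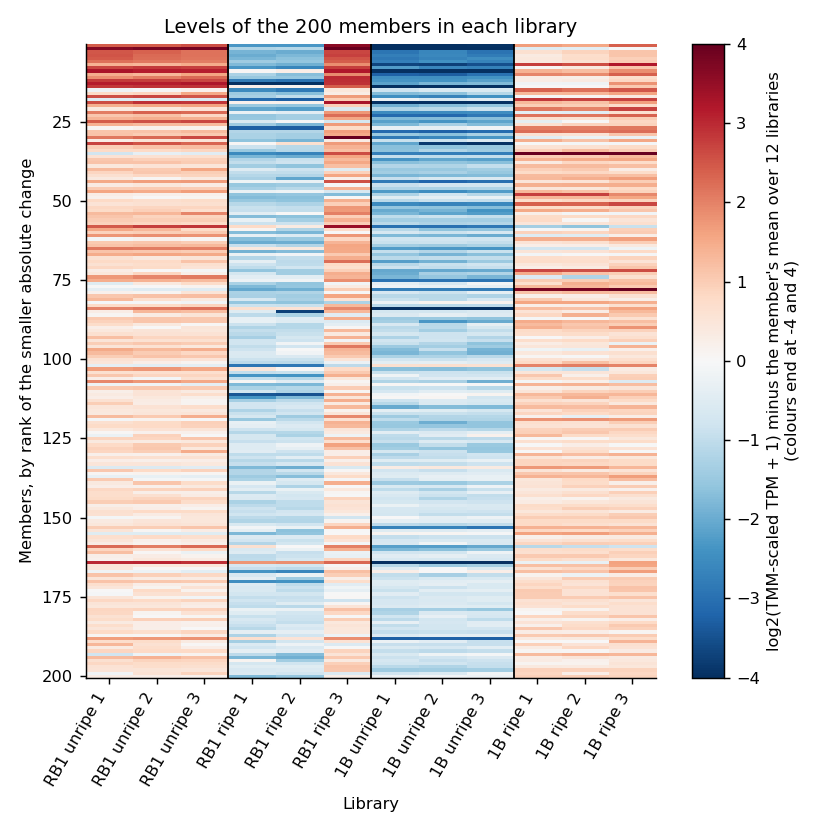
Level of each member (rows, ordered by the rank of the smaller change, 1 at the top) in each of the 12 libraries (columns), as log2(TMM-scaled TPM + 1) minus the member's mean over the libraries. Unripe ‘RB1’ and ripe ‘1B’ are mostly red and ripe ‘RB1’ replicates 1 and 2 and unripe ‘1B’ mostly blue, while ‘RB1’ ripe replicate 3 is mostly red, like unripe ‘RB1’.

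Of the 77 named genes of the study's list 6 were members (7.79%), against 1.5% of the genes with a mean of at least 1. The study chose that list for differences between the varieties in these same ripe libraries, so the share is not independent evidence. The 6 are a sucrose synthase, a beta-glucosidase, 3 enzymes of glycolysis and a subunit of plastid acetyl-CoA carboxylase, and none is from the terpenoid pathways.

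Sucrose synthase 2 (TRINITY_DN775_c0_g1), which cleaves sucrose reversibly, had levels of 2.76, 2.65 and 3.00 in unripe ‘RB1’ and 0.18 and 0.144 in ripe ‘RB1’. In ‘1B’ its levels were 0.012, 0.015 and 0.041 when unripe and 1.59, 1.61 and 2.35 when ripe. The unripe ‘1B’ libraries rest on 2, 3 and 7 counts, so the gene was close to the limit of detection there, and all 3 ripe ‘1B’ libraries lay below all 3 unripe ‘RB1’ libraries. The ripening change was -1.71 in ‘RB1’ and 1.48 in ‘1B’. Sucrose synthase 3-like (TRINITY_DN775_c0_g2) and a further sucrose synthase (TRINITY_DN775_c0_g3), which Trinity assembled from the same cluster of reads, changed by 0.16 and 1.60 in ‘RB1’ and by 1.38 and 0.77 in ‘1B’. Reads of similar sequence may be divided among the genes of such a cluster, so the values of this gene are less certain.

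Beta-glucosidase 31-like (TRINITY_DN3009_c0_g1), of a family that releases glucose from glucosides, had levels of 29.4, 32.6 and 35.4 in unripe and 2.75 and 4.54 in ripe ‘RB1’, an 8.91-fold lower mean in ripe fruit. Its levels in ‘1B’ were 0.266, 0.123 and 0.314 when unripe and 3.34, 4.63 and 9.10 when ripe. The unripe ‘RB1’ libraries were the highest by far, and ripe ‘1B’ overlapped with ripe ‘RB1’. Of the genes the paper measured by RT-qPCR, it names only this gene (cpBGLU31) as differing from its RNA-seq result. The ripe levels of a further gene measured there, cpPFP, also differed here from the paper's RT-qPCR result, as given below. Beta-glucosidase 31-like differs from the other 5 enzymes in that ‘RB1’ ripe replicate 3, at 2.50, was low like the other ripe ‘RB1’ libraries. Beta-glucosidase 42-like (TRINITY_DN1938_c0_g1) came nearest to the limits among the other beta-glucosidases of the list, with changes of -1.46 and 0.77.

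The beta subunit of pyrophosphate-dependent phosphofructokinase (PFP, TRINITY_DN2802_c0_g1), which interconverts fructose phosphates with pyrophosphate as the phosphate donor, had the highest levels of the 6. They were 143, 146 and 144 in unripe and 42.6 and 41.0 in ripe ‘RB1’, and 26.4, 25.6 and 23.9 in unripe and 133, 132 and 152 in ripe ‘1B’. Unripe ‘RB1’ at 144 ± 1.89 and ripe ‘1B’ at 139 ± 11.1 (SD, n = 3 each) thus had similar levels. The mean was 3.45-fold lower in ripe ‘RB1’ and 5.51-fold higher in ripe ‘1B’ than in the unripe fruit of the same variety. The listed isoform of this gene has the annotation of the paper's cpPFP. By RT-qPCR the paper reports cpPFP as significantly higher in ripe ‘RB1’ than in the other variety, and as matching its RNA-seq data. Here the ripe mean of the gene was lower in ‘RB1’, at 41.8 against 139 in ‘1B’. ‘RB1’ ripe replicate 3, left out of that mean, lay above all other libraries. The reason for the difference was not tested.

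A 2,3-bisphosphoglycerate-dependent phosphoglycerate mutase (TRINITY_DN2089_c0_g2), of the enzymes that interconvert the phosphoglycerates of lower glycolysis, had levels of 11.5, 9.68 and 9.64 in unripe ‘RB1’ and 0.138 and 0.131 in ripe ‘RB1’, where the levels rest on 12 and 5 counts. In ‘1B’ its levels were 4.17, 2.49 and 2.43 when unripe and 11.5, 5.80 and 10.3 when ripe. It was therefore near 0 in ripe ‘RB1’ replicates 1 and 2 and present in every other library. The 2,3-bisphosphoglycerate-independent mutase of the list (TRINITY_DN1285_c2_g1) changed by 0.72 in ‘RB1’ and -0.26 in ‘1B’, the opposite signs.

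Plastidial pyruvate kinase 2 (TRINITY_DN1288_c0_g1), which makes pyruvate from phosphoenolpyruvate in the plastid, had levels of 88.7, 94.0 and 92.6 in unripe and 11.2 and 12.7 in ripe ‘RB1’, a 7.66-fold lower mean. In ‘1B’ the levels were 9.35, 9.60 and 9.98 when unripe and 54.6, 52.3 and 67.9 when ripe, a 6.04-fold higher mean on the deposited scale and a fitted log2 fold change of 1.71. The other pyruvate kinases of the list did not meet both limits. Isozyme A, chloroplastic-like (TRINITY_DN5471_c0_g1) changed by -0.88 and 1.62 in ‘RB1’ and ‘1B’, isozyme G, chloroplastic (TRINITY_DN6161_c0_g1) by 1.32 and -0.12, and pyruvate kinase 1, cytosolic-like (TRINITY_DN7757_c0_g1) by 0.66 and 0.98.

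The alpha subunit of the carboxyl transferase of plastid acetyl-CoA carboxylase (TRINITY_DN578_c0_g1), part of the enzyme that makes malonyl-CoA for fatty acid synthesis, had levels of 23.6, 21.8 and 22.7 in unripe and 3.90 and 3.59 in ripe ‘RB1’. In ‘1B’ they were 5.75, 6.65 and 6.30 when unripe and 21.9, 23.9 and 25.2 when ripe. The mean was 6.06-fold lower in ripe ‘RB1’ and 3.80-fold higher in ripe ‘1B’ than in unripe fruit on the deposited scale, with a fitted log2 fold change of 1.12 in ‘1B’ that was not called, and unripe ‘RB1’ and ripe ‘1B’ overlapped. The biotin carboxyl carrier protein of the same enzyme (TRINITY_DN10296_c0_g1) changed by -0.70 and 1.66, and a second gene for the alpha subunit (TRINITY_DN5108_c1_g1) by -0.86 and 0.12.

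**Figure D3:**
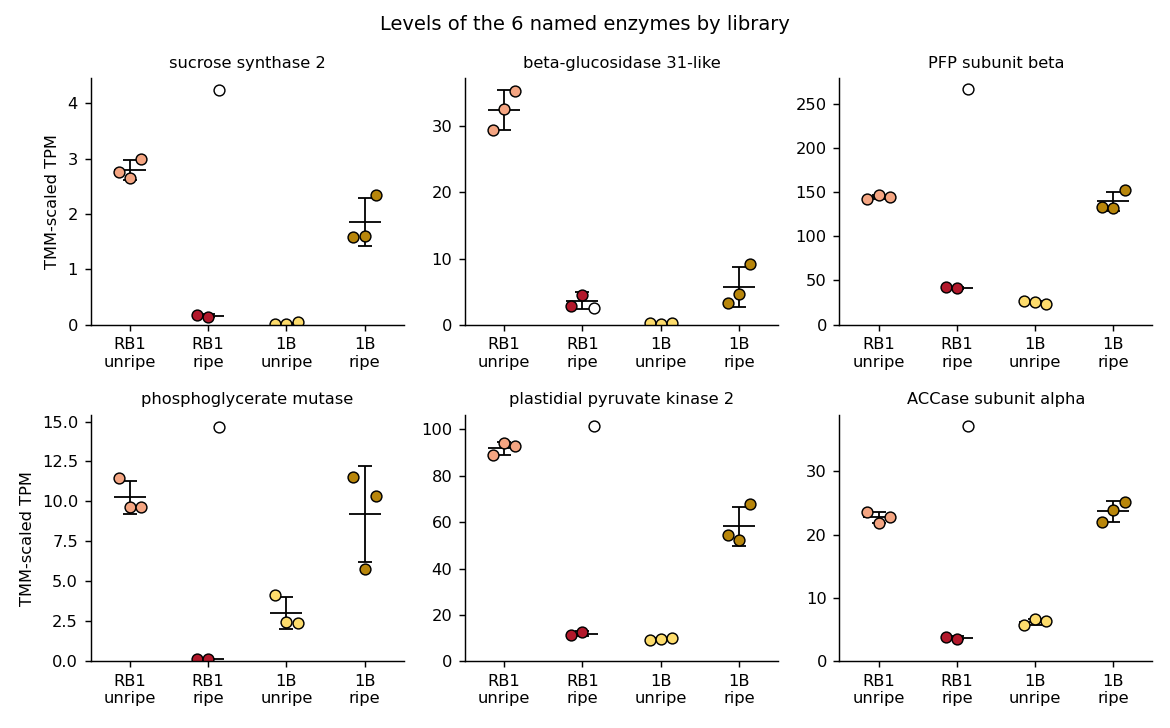
TMM-scaled TPM of the 6 named enzymes in each library (points), with group mean and SD (bars). The open point in ripe ‘RB1’ is replicate 3, which is not in the mean; it lies above all 11 other libraries for every enzyme except beta-glucosidase 31-like, where it is at 2.50.

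In the study's list as a whole, most genes did not have the pattern. Of its 77 genes, 16 changed by less than -1 and 14 by more than 1 in ‘RB1’, and 29 changed by more than 1 and 12 by less than -1 in ‘1B’. The 6 members met both limits, 3 genes met them with the signs exchanged, 4 were below -1 in both varieties and 6 above 1 in both. Glycolysis and gluconeogenesis had 3 members among 24 genes, starch and sucrose metabolism 2 among 26, fatty acid biosynthesis 1 among 12 and terpenoid backbone biosynthesis 0 among 11. In the fitted comparisons of ripe with unripe fruit 12 of the 77 genes were called higher and 13 lower in ripe ‘RB1’, and 16 higher and 15 lower in ripe ‘1B’. Over all tested genes these shares were 8.65% and 7.79% in ‘RB1’ and 16.6% and 8.98% in ‘1B’. Without the 6 members, whose changes the rule fixes, 12 of 71 genes were called higher and 7 lower in ripe ‘RB1’, and 12 higher and 15 lower in ripe ‘1B’.

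The 6 members with the largest smaller change have no name in the list. TRINITY_DN321_c0_g1 led them, with levels of 429.9, 428 and 473 in unripe and 14.9 and 15.0 in ripe ‘RB1’, and 4.06, 3.85 and 4.10 in unripe and 251, 233 and 414 in ripe ‘1B’. Its mean was 29.6-fold lower in ripe ‘RB1’ and 74.7-fold higher in ripe ‘1B’. In TRINITY_DN3520_c0_g3 the mean was 33.8-fold lower in ripe ‘RB1’ and 43.3-fold higher in ripe ‘1B’, but on unequal levels, 354 ± 20.1 in unripe ‘RB1’ against 19.9 ± 4.04 in ripe ‘1B’ (SD, n = 3 each).

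TRINITY_DN75_c4_g2, TRINITY_DN75_c15_g1, TRINITY_DN4847_c0_g1 and TRINITY_DN10035_c0_g1 had similar profiles. The mean of TRINITY_DN75_c4_g2 was 187 ± 21.0 in unripe ‘RB1’, 8.76 ± 0.604 in ripe ‘RB1’ (SD, n = 2), 4.26 ± 0.737 in unripe ‘1B’ and 67.5 ± 11.6 in ripe ‘1B’. All 4 were 13.6- to 21.3-fold lower in ripe ‘RB1’ and 12.2- to 15.8-fold higher in ripe ‘1B’ on the deposited scale. Their fitted log2 fold changes in ‘1B’ were smaller, from 2.6 to 3.1. The first 2 come from 1 Trinity read cluster, as does another member, TRINITY_DN75_c1_g1, with changes of -1.77 and 5.06. In all, the 200 members came from 189 read clusters, and 9 clusters held 20 of them, so these are not 200 independent genes.

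The 6 most abundant members also have no name. TRINITY_DN176_c5_g1 was at 34368, 31347 and 30916 in unripe and 3718 and 4259.9 in ripe ‘RB1’, and at 74.1, 54.6 and 58.7 in unripe and 9281, 8386 and 13024 in ripe ‘1B’. It was the 5th to 7th most abundant Trinity gene in the unripe ‘RB1’ libraries, the 7th to 10th in ripe ‘1B’ and the 507th to 649th in unripe ‘1B’. TRINITY_DN2048_c0_g1 and TRINITY_DN3935_c1_g2 were higher in ripe ‘1B’ than in unripe ‘RB1’, with 5194 ± 1035 against 3303 ± 290.0 and 4211 ± 940.3 against 1522 ± 91.6 (SD, n = 3 each). Their means in ripe ‘RB1’ were 438 and 160.4, and in unripe ‘1B’ 134 and 45.4.

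The other 3 abundant members changed unevenly. TRINITY_DN295_c0_g1 was 11.7-fold lower in ripe ‘RB1’ but only 2.25-fold higher in ripe ‘1B’, and unripe ‘1B’ already had 489 ± 24.9 (SD, n = 3). TRINITY_DN6667_c0_g4 was 6.26-fold lower and 171-fold higher, from 1.74 ± 0.0583 in unripe to 297 ± 52.0 in ripe ‘1B’. TRINITY_DN1013_c0_g1 was 2.19-fold lower and 14.2-fold higher. The fitted log2 fold changes of these genes in ‘1B’ were 0.47, 6.58 and 3.08, in the same order. At the edge of the 200, TRINITY_DN1399_c0_g1 was the last member, with changes of -1.90 and 1.11, and TRINITY_DN9598_c0_g2 the first gene outside, with changes of -1.11 and 1.13.

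The members' ripening differences were also fitted with edgeR's quasi-likelihood model on the counts, in which a gene was called when its adjusted p was under 0.05 and its log2 fold change exceeded 1.5 in size. These calls repeat the contrasts of the rule on the same libraries, so nothing is read from their counts. Lower in ripe ‘RB1’ was called for 136 of the 200 members, higher in ripe ‘1B’ for 106 and both for 81. Over all 36566 genes tested the same calls were made for 7.79%, 16.6% and 1.30%. The fitted change was past 1 in both varieties for 141 members, below -1 in ‘RB1’ for 190 and above 1 in ‘1B’ for 147. It was smaller than the change of the rule in ‘1B’ for 147, and for 1 member it was at or below 0. The deposited scale and that of the fit differed. Over the 2349 tested genes with a mean of at least 10 in every group, the log2 ratio of the mean levels, ripe over unripe, was above the fitted change by 0.75 in ‘1B’ and lay at -0.17 from it in ‘RB1’ (medians). On the fitted scale plastidial pyruvate kinase 2 changed by 1.71 in ‘1B’, the carboxylase subunit by 1.12 and the phosphoglycerate mutase by 0.88, of which only the first was called. Which scale is nearer to the amounts of RNA was not tested. Dividing by library size alone, without TMM factors, moved the median fitted change of all tested genes in ‘1B’ from 0.33 to 1.33, in ‘RB1’ from -0.13 to 0.03, and in the comparison of the varieties from 0.12 to -0.04. With all 12 libraries the calls for lower in ripe ‘RB1’ fell to 15 and for both to 10.

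The question of whether the members differed between the varieties over both stages together was put to the same fit with a contrast that the rule did not use, ‘1B’ minus ‘RB1’ averaged over unripe and ripe. For 186 members the varieties differed in opposite directions at the 2 stages, so this average measures how unequal the 2 differences were. It is computed from the libraries that chose the members, and with n = 2 in ripe ‘RB1’ it is not fully independent of the ripening contrasts. A difference was called for 51 of the 200 members, all of which were tested, against 12.2% of all tested genes. Of these, 18 were higher in ‘1B’, against 6.73% of all genes, and 33 were lower, against 5.45%. The averaged log2 fold change ran from -6.56 to 3.31, with a median of -0.10 against 0.12 over all genes, and it was within 0.5 of 0 for 69 members. With all 12 libraries 4 members were called higher and 54 lower, so the calls for higher in ‘1B’ depend on leaving out ‘RB1’ ripe replicate 3.

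Among the enzymes, beta-glucosidase 31-like was lower in ‘1B’ on the average of the stages (log2 fold change -2.96, SE 0.202, adjusted p = 5.09e-14). In ripe fruit alone its mean was higher in ‘1B’, 5.69 against 3.64. For it, sucrose synthase 2 and the phosphoglycerate mutase, ‘RB1’ had the higher mean when unripe and ‘1B’ when ripe. Sucrose synthase 2 was also lower (-1.89, SE 0.233, adjusted p = 3.19e-08), and the phosphoglycerate mutase was higher (2.24, SE 0.232, adjusted p = 8.41e-10) and almost absent from ripe ‘RB1’ replicates 1 and 2. Both rest in part on groups with fewer than 13 counts in a library, and with limma on log2(TMM-scaled TPM + 1) their values were -0.31 and 0.81, neither past the limit. With replicate 3 included the value of the mutase was -0.47 (adjusted p = 0.696). Plastidial pyruvate kinase 2 (-0.68, SE 0.0839), PFP subunit beta (-0.46, SE 0.0819) and the carboxylase subunit (0.26, SE 0.0787) had adjusted p of 3.1e-08, 2.07e-05 and 0.00847 and did not pass the fold limit. With replicate 3 included the pyruvate kinase reached -1.56 and was called, and the carboxylase subunit was at -0.66 (adjusted p = 0.274).

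The 3 members called higher in ‘1B’ with the largest difference and no overlap between the 6 ‘1B’ and 5 ‘RB1’ libraries were TRINITY_DN4158_c1_g1 (2.94, SE 0.0881), TRINITY_DN2457_c3_g2 (2.50, SE 0.118) and TRINITY_DN7780_c0_g1 (2.47, SE 0.0953), with adjusted p of at most 3.94e-18. In TRINITY_DN4158_c1_g1 the levels were 77.7, 74.6 and 76.2 in unripe and 12.5 and 12.9 in ripe ‘RB1’, and 157, 158 and 152 in unripe and 398, 410.3 and 396 in ripe ‘1B’. The lowest ‘1B’ library was thus above the highest ‘RB1’ library. With replicate 3 included TRINITY_DN2457_c3_g2 was at 1.00 (adjusted p = 0.226).

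In the other direction stood TRINITY_DN3318_c0_g2 (-6.56, SE 0.244), TRINITY_DN430_c0_g1 (-5.85, SE 0.256) and TRINITY_DN2504_c0_g1 (-4.81, SE 0.112), with adjusted p of at most 5.52e-19. TRINITY_DN3318_c0_g2 had 0, 0 and 1 counts in unripe ‘1B’, so its value depends on the prior count of the fit. TRINITY_DN430_c0_g1 was at 414, 418 and 386 in unripe and 172 and 185 in ripe ‘RB1’, against 0.399, 0.201 and 0.225 in unripe and 42.1, 40.2 and 154 in ripe ‘1B’. Ripe ‘1B’ replicate 3 was well above the other ripe ‘1B’ libraries for this gene. In each direction 5 called members (2.5%) did not overlap between the varieties, against 2.47% of all tested genes for higher and 2.00% for lower in ‘1B’, so these counts are near the background.

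**Figure D4:**
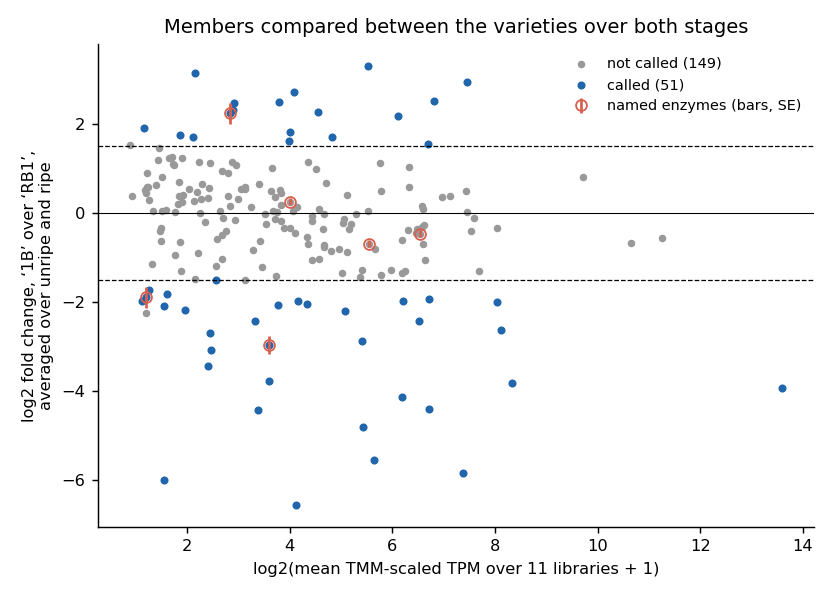
Log2 fold change of each member between the varieties averaged over the stages (y axis, ‘1B’ over ‘RB1’) against its mean level (x axis, log2 scale), with dashed lines at -1.5 and 1.5. The 51 called members (blue) are 18 above and 33 below, and the named enzymes (red rings, bars for SE) run from -2.96 for beta-glucosidase 31-like to 2.24 for the phosphoglycerate mutase.

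‘RB1’ ripe replicate 3 took no part in choosing the members, and as 1 library it allows no test. It was lower than every unripe ‘RB1’ library for 69 members (34.5%), against 21.5% of all genes and 63.0% of the 1015 other genes with a change below -1 in ‘RB1’. The shares of all genes in this paragraph are over the 75248 with a level above 0. Only 13203 genes have a mean of at least 1, as 198 members do, so these shares are a loose comparison. It lay above both other ripe ‘RB1’ libraries for 194 members, against 44.3% of all genes and 92.0% of those others, a count that low levels in replicates 1 and 2, which the rule requires, lead to. It was above every unripe ‘RB1’ library for 100 members, against 23.3% of all genes and 183 of the 1015 others, and above all 11 other libraries for 65 members, against 4.42% and 112 of the 1015. On a scale with 0 at the unripe ‘RB1’ mean and 1 at the mean of ripe replicates 1 and 2, its median place was -0.06 over the members (quartiles -0.24 and 0.23) and 0.24 over the other genes. It was lower than unripe ‘RB1’ by more than 1 for 11 members (5.5%), against 19.3% of those genes. The fall in ripe ‘RB1’ was therefore seen in replicates 1 and 2 and, for most members, not in replicate 3.

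This held for named enzymes. Replicate 3 had 101 for plastidial pyruvate kinase 2, 266 for PFP subunit beta and 37.1 for the carboxylase subunit. It had 4.24 for sucrose synthase 2 and 14.7 for the phosphoglycerate mutase. All 5 were above every other library of the series. For TRINITY_DN321_c0_g1 it had 966 and for TRINITY_DN176_c5_g1 32802, and the members together held 5.15% of its summed level. With it included in the group mean, 61 genes met both limits, 59 of them members. Whether the fruit was at another stage was not tested.

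**Figure D5:**
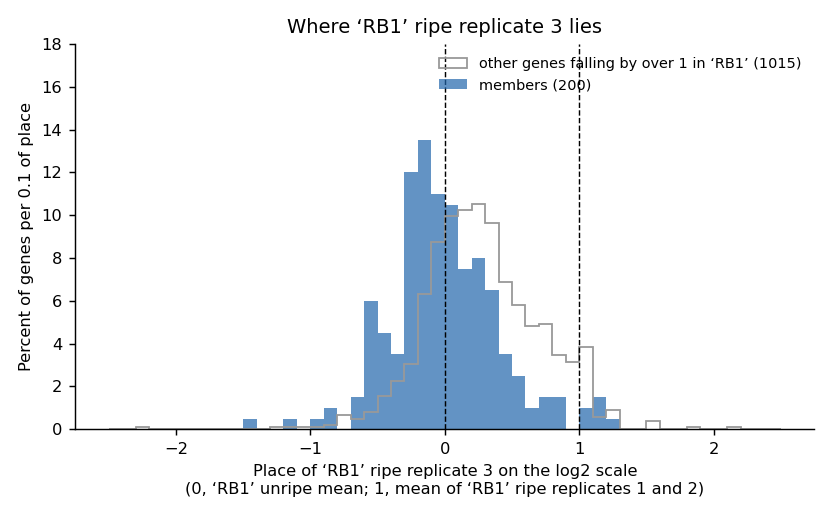
Place of ‘RB1’ ripe replicate 3 for the 200 members (filled) and for 1015 other genes with a change below -1 in ‘RB1’ (line), in percent of the genes per bin. At 0 (dashed) the library equals unripe ‘RB1’ and at 1 (dashed) the other ripe ‘RB1’ libraries; the members centre at -0.06 and the other genes at 0.24.

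The isoforms behind the gene totals were not used by the rule. Of the 200 members 166 had at least 2 isoforms. The isoform with the highest mean was the same in unripe ‘RB1’ and ripe ‘1B’, the high groups, for 136 of the 166 (81.9%), against 77.7% of 10791 genes with a mean of at least 1. Between the stages of one variety it was the same for 112 of 166 (67.5%) in ‘RB1’ and for 114 of 165 (69.1%) in ‘1B’, against 78.6% and 79.5%. The rule makes ripe ‘RB1’ and unripe ‘1B’ low. Of all 200 members, 57 had a mean under 1 in ripe ‘RB1’ and 54 in unripe ‘1B’. The leading isoform is less certain at such levels, so nothing is read from the lower shares between stages. A single isoform met both limits in 128 of the 166 members, and in 38 only the gene total did. A leading isoform at 0 throughout the other variety was found in 1 member for each variety.

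Beta-glucosidase 31-like was the named case. Its isoform i2, the one in the study's list, had 15.3, 18.4 and 18.3 in unripe ‘RB1’, 53.4% of the gene, and is listed at 0 in all 6 ‘1B’ libraries. Isoform i22 had 12.6, 10.8 and 12.5 in unripe ‘RB1’ and 2.81, 2.55 and 6.78 in ripe ‘1B’, 71.1% of the gene there. The higher total in ripe ‘1B’ thus came mostly from i22, and the listed isoform took no part in it.

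PFP subunit beta kept 1 isoform, i48, at 81.2% to 85.7% of the gene in all 4 groups, and the isoform that carries the name in the list, i49, was at 0.197 to 0.313 in ripe ‘1B’ and at 0 in every ‘RB1’ library. Plastidial pyruvate kinase 2 was led by i51 in all 4 groups. Its listed isoform i14 had 10.2% of the gene in unripe ‘RB1’ and 25.6% in ripe ‘1B’ and is listed at 0 in all unripe ‘1B’ libraries. The listed isoform of the phosphoglycerate mutase, i6, made up 88.5% of the gene in unripe ‘RB1’ and 86.9% in ripe ‘1B’ and is listed at 0 in ripe ‘RB1’ replicates 1 and 2. For these genes the name rests on 1 isoform and the values are of the gene total.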

How the data were processed

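Reads of 12 fruit flesh libraries were trimmed by the authors with bbduk and Trimmomatic 0.40, checked with FastQC 0.11.9, assembled with Trinity without a genome, and quantified with Salmon, with no genome build. The authors deposited expected counts per transcript, not normalized, and a signal table of TPM scaled by TMM factors across the 12 libraries. Both were summed per Trinity gene, and the counts were rounded to whole numbers. Group means without ‘RB1’ ripe replicate 3, a pseudocount of 1 and limits of 1 on the log2 scale chose the members. Fold changes on the log2(value + 1) scale understate those of low genes. The members and lists were chosen with earlier results of these data known.

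One edgeR 4.0.16 quasi-likelihood fit (R 4.3.3; filterByExpr, TMM) of the 4 groups in 11 libraries gave all tests, with Benjamini-Hochberg adjustment over all tested genes and calls where the adjusted p was under 0.05 and the log2 fold change exceeded 1.5 in size. SE is the log2 fold change over the root of the F statistic. Only the comparison of the varieties averaged over the stages was tested on simulated counts, which had no effect of stage. The choice of members, the ripening comparisons, the isoform counts and the counts of replicate 3 were not simulated. The labels call the replicates biological. The p-values measure the spread between the fruits in the fit, and that spread leaves out ‘RB1’ ripe replicate 3.

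Named in the text are members in the study's pathway list, the 6 with the largest smaller change, the 6 of highest mean level, the genes at the edge of the 200, and the 3 per direction with the largest called difference between the varieties without overlap. List genes beside them were chosen after their values were seen. The alternatives were other scalings, filters, pseudocounts and means, DESeq2 1.42.0, limma 3.58.1, a replicate block, single transcripts, all 12 libraries and each library left out. Tables were read with Python 3.11.15. Columns of all 12 libraries matched their labels. Sequences and further annotation were not used here.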

Additional observations from a re-analysis of the deposited data

How the results depend on the processing

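The count of genes that met both limits, 265, was 5434 with a pseudocount of 0.1, 94 with one of 5, 61 with ‘RB1’ ripe replicate 3 kept and 453 as single transcripts. It was 174 after a shift to a median ripening change of 0 in each variety, a setting chosen after seeing the data, which 149 members met. It was 251 to 317 with each library left out, and 192 to 200 members met the limits there. CPM of the counts gave 201 genes with 125 of the members, and TPM rescaled to an equal sum per library, also added after seeing the data, 231 with 152.

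The 51 members called between the varieties became 147 with no fold limit, where 42.1% of all genes were called, and 50 to 55 with each library left out. The 81 called in both ripening comparisons became 10 with all 12 libraries, 189 with no fold limit and 76 to 84 with each library left out. With library size only, the members called higher in ripe ‘1B’ went from 106 to 193 and those called lower in ripe ‘RB1’ from 136 to 115, and with all 12 libraries the latter were 15. The other alternatives gave counts between the varieties and in both ripening comparisons within 1.5 times the main ones, among them 35 between the varieties with limma and 111 in both ripening comparisons with library size only.

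The count of members below every unripe ‘RB1’ library in replicate 3, 69, was 73 to 77 with each unripe ‘RB1’ library left out, 61 on CPM and 91 against the unripe mean. The 136 members with the same leading isoform were 132 to 137 with each library left out and 136 by counts or with a minimum group mean of 0.5. Of 525 values of the comparison between the varieties for 25 named members, 497 kept their direction and side of the threshold. Direction changed in 3, all with all 12 libraries, where the carboxylase subunit (TRINITY_DN578_c0_g1) was at -0.66, the phosphoglycerate mutase (TRINITY_DN2089_c0_g2) at -0.47 and TRINITY_DN295_c0_g1 at -0.10. The cause was not tested.

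Libraries with equal replicate numbers did not deviate together, with correlations of -0.0406 to 0.0193 over 15 pairs, and the samples were treated as unpaired. Whether some fruits shared an origin or a batch was not tested. With a replicate block 52 members were called between the varieties and 79 in both ripening comparisons. Depth limits the 15 members with fewer than 10 counts in every library of 2 groups.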
